A study of Mus musculus with 5 samples.

Results

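A set of 10 genes of the response to oxidants and metals was followed in newborn mouse hearts with and without the long noncoding RNA Charme: the transcription factor gene Nfe2l2, which encodes NRF2, its textbook targets Nqo1, Gclc, Gclm, Hmox1, Txnrd1, Srxn1 and Slc7a11, and the metallothionein genes Mt1 and Mt2. They were chosen by name, with earlier results of these data known but with no rule on their values, and are 10 of the 49671 genes of the deposited count table. All 10 matched 1 gene by symbol and 9 passed the filter on low counts, Slc7a11 being the exception. None of the 9 was called different between the genotypes, beside 2.05% of all genes tested. Mt2 had the largest difference, 1.67-fold higher in Charme KO. It was the 1 tested member whose 2 Charme KO values exceeded all 3 Charme WT values, beside 17.8% of all genes tested.

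The hearts came from C57BL6/J mice at postnatal day 2 (PN2), an age at which heart muscle is still maturing. Charme KO animals carry a PolyA signal inserted in the Charme locus, which ends its transcript early, and Charme WT littermates carry the intact locus. Poly(A) RNA of whole hearts was sequenced in 5 libraries. A Charme WT library held 9 pooled hearts (3 such pools) and a Charme KO library held 3 (2 such pools), which means that pool size cannot be told apart from genotype. The comparison asks which RNAs change in the heart when Charme is lost.

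NRF2 is held at low levels by KEAP1, which presents it for degradation, and oxidants or electrophiles that modify KEAP1 let NRF2 enter the nucleus and bind, with a small MAF protein, the antioxidant response element of its targets. These targets make glutathione, reduce thioredoxin, quinones and oxidized peroxiredoxins, and break down heme. Metallothioneins are small cysteine-rich proteins that bind zinc and copper, and their genes are switched on by the zinc-sensing factor MTF1 at metal response elements, and also by glucocorticoids.

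The promoters of the metallothionein genes are shown because Mt2 and Mt1, neighbours on chromosome 8, had different spreads over the pools. A link between their promoters and these spreads was not tested. Both are given 5′ to 3′ on the plus strand, from 250 bases before the RefSeq start (GRCm38.p6), with 30 bases from the start on. Capitals mark the letters TGCACNC or TGCGCNC, the core of the metal response element, or TGACNNNGC, the core of the antioxidant response element, each searched on both strands.
Mt2, chr8:94172368-94172647: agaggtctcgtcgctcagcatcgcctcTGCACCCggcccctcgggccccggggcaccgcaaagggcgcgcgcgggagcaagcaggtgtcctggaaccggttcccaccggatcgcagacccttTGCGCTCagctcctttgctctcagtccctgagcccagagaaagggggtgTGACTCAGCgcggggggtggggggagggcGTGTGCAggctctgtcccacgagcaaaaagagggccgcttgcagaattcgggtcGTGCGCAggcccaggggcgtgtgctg
Mt1, chr8:94178839-94179118: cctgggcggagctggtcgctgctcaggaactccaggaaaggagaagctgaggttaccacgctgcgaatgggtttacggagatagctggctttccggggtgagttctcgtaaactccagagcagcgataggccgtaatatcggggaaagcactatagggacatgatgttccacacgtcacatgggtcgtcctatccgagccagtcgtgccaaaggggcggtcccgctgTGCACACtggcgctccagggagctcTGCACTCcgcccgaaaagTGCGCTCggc
Mt2 held 4 metal response cores, which began at positions -223, -128, -50 and 4 (the start being 0), and 1 antioxidant core, TGACTCAGC. The gene annotation behind the coordinates below starts Mt2 further downstream, at 94172664, so the core at 4 lies before that start. The Mt1 window held 3 metal response cores and no antioxidant core. Bases outside the windows were not searched, so this does not show that Mt1 lacks an antioxidant core. At least 3 metal response cores stood in 1.97% of the 32851 RefSeq promoters of 300 bases (250 before the start and 50 from it on). At least 1 stood in 25.7%. The metallothioneins were not alone in this, as Gclm also held 3 such cores in its promoter and Srxn1 held 1.

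The antioxidant core is also shown in the promoters of NRF2 itself and of a pair of targets, Gclm and Txnrd1, again with the core in capitals and on the strand of the gene.
Nfe2l2, chr2:75704879-75704913, minus strand: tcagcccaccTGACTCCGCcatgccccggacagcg
Gclm, chr3:122245407-122245447, plus strand: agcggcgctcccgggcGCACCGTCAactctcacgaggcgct
Txnrd1, chr10:82859098-82859138, plus strand: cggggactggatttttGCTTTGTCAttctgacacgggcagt
A window was at hand for 8 of the 10 genes (10 windows, 3 of them of Txnrd1), and 5 genes held the core: these 3, Mt2 and Srxn1, whose core lay 28 bases after the start. It stood in 12.4% of all 32851 promoters. The core in Gclm overlapped a TGCGCNC, and the Nqo1 and Slc7a11 windows held neither core. A match of letters is a description and does not show a bound factor.

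Counts on genes ranged from 16721055 to 21646378 per pool. Charme itself had 39.3, 10.4 and 14.0 CPM (counts per 1000000 of the TMM-scaled library) in the Charme WT pools and 4.03 and 3.54 CPM in the Charme KO pools, in the direction of the labels. The pools stood apart in other ways. Mitochondrially encoded genes took 21.1% of the counts of Charme KO pool 1 and 9.68% to 11.2% of the others. The 12 salivary gland markers took 2.65% of Charme KO pool 2 and 0.0294% of Charme KO pool 1. In the Charme WT pools they took 0.000382% or less, so both Charme KO pools stood above Charme WT. Adipose markers summed to 2152 CPM in Charme KO pool 2 and 527.5 to 699.9 in the others. Erythroid markers summed to 869.4 to 1253 CPM in Charme WT and to 2283 and 1618 in the Charme KO pools. The 12 cardiomyocyte markers were all detected in every pool, at 53400 to 69180 CPM in sum in Charme WT and 64230 and 57170 in Charme KO. The part of these differences between pools in the results below was not tested. In whole-heart RNA, fewer cells of a type and less RNA per cell cannot be told apart.

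Of 14880 genes tested, 305 (2.05%) were called, at an adjusted p under 0.1 by edgeR's quasi-likelihood test and a mean FPKM (fragments per kilobase of exon per 1000000 counted) of at least 1 in a genotype. Of all genes tested 1.53% were called higher in Charme KO (227 genes) and 0.524% lower (78). With a correction for gene length and GC content the calls were 226 higher and 132 lower. None of the 9 tested members was called, and none by the likelihood ratio test, which called 6.27% of all genes, or by DESeq2. At an unadjusted p under 0.05, 1 of the 9 members passed, Mt2, beside 18.6% of all genes. The median log2 fold change of the 9 members was 0.04, and that of all genes tested was 0.02. The Charme KO values both exceeded all Charme WT values for 1 of the 9 members, beside 17.8% of all genes, and both lay below them for 0, beside 18.2%. For the other 8 the genotypes overlapped.

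Levels are given first, as FPKM, which allows genes of different length to be compared. In Charme WT the order by mean FPKM was Mt1 (95.2), Mt2 (50.8), Nfe2l2 (15.8), Hmox1 (14.2), Nqo1 (9.23), Txnrd1 (8.71), Gclm (4.49), Srxn1 (4.17), Gclc (2.77) and Slc7a11 (0.00866). The ranges of neighbours overlapped between Nfe2l2 and Hmox1, Nqo1 and Txnrd1, and Gclm and Srxn1. Compared within each Charme WT pool, Gclm always exceeded Srxn1, while the other pairs changed order from pool to pool. Over all 5 pools the ranges of Mt1 and Mt2, Hmox1 and Nqo1, and Srxn1 and Gclc overlapped as well. Within every pool, though, Mt1 exceeded Mt2 and Srxn1 exceeded Gclc. The annotated exons of Mt1 cover its whole span of 1246 bases and those of Mt2 588 bases, and the FPKM of each depends on that length.

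**Figure D1:**
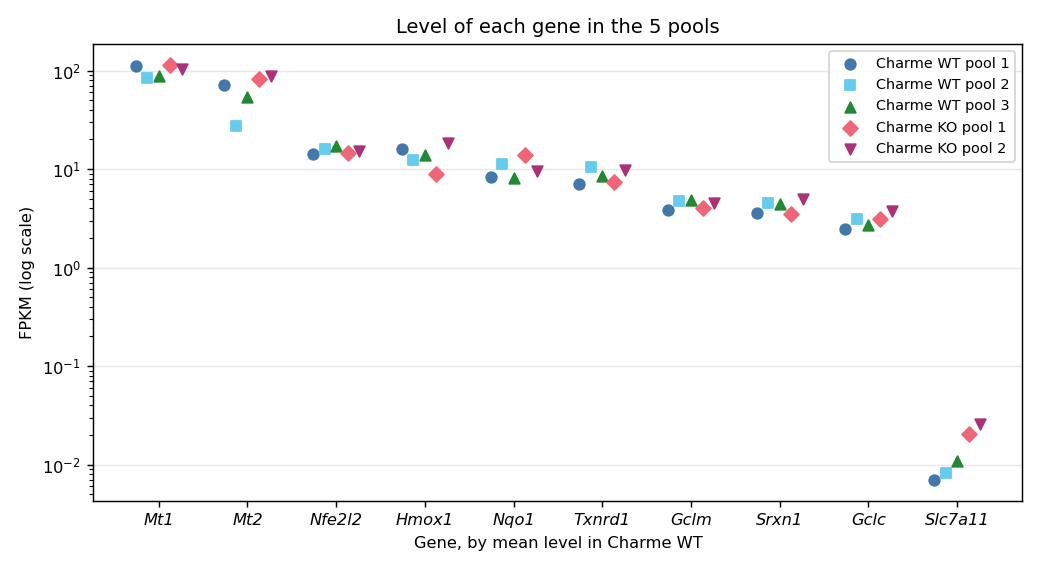
FPKM on a log axis for each of the 10 genes, ordered by mean in Charme WT, with 1 symbol per pool (3 Charme WT, 2 Charme KO). The metallothioneins lie highest, between 27.2 and 114.8, the middle 7 genes between 2.47 and 18.6, and Slc7a11 below 0.03.

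Nfe2l2, the gene of NRF2 itself (chromosome 2, 75675513 to 75704641, minus strand, GRCm38), had 14.3, 16.1 and 17.0 FPKM in Charme WT (pools 1 to 3, here and below) and 14.5 and 15.3 in Charme KO (pools 1 and 2). Both Charme KO values fell within the Charme WT range, at 15.8 ± 1.42 (SD, n = 3) against 14.9 ± 0.61 (SD, n = 2). The log2 fold change, Charme KO over Charme WT, was -0.09 (SE 0.17; edgeR quasi-likelihood adjusted p = 0.815), with a 95% interval of -0.48 to 0.30. The interval reaches from 0.719-fold to 1.24-fold, so that a 2-fold difference in the RNA of Nfe2l2 lay outside it.

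Nqo1, the quinone reductase often read as a marker of NRF2 activity (chromosome 8, 107388225 to 107403206, minus strand), had 8.31, 11.3 and 8.13 FPKM in Charme WT and 14.0 and 9.52 in Charme KO. Charme KO pool 1 was the highest of the 5, and Charme KO pool 2 lay within the Charme WT range. The log2 fold change was 0.35 (SE 0.26; edgeR quasi-likelihood adjusted p = 0.482), with a 95% interval of -0.23 to 0.92. It was 0.05 without Charme KO pool 1 and 0.0054 with a correction for gene length and GC content.

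Gclc and Gclm encode the catalytic and the modifier subunit of glutamate-cysteine ligase, the first and limiting enzyme of glutathione synthesis. Gclc (chromosome 9, 77754535 to 77794485, plus strand) had 2.47, 3.14 and 2.71 FPKM in Charme WT and 3.08 and 3.76 in Charme KO, so that 1 Charme KO pool lay within the Charme WT range and 1 above it. The fold change of Gclc was 0.31 on the log2 scale (SE 0.24; edgeR quasi-likelihood adjusted p = 0.5). Gclm (chromosome 3, 122245557 to 122270732, plus strand) had 3.88, 4.74 and 4.87 FPKM in Charme WT and 4.02 and 4.56 in Charme KO, both within the Charme WT range. That of Gclm was -0.07 (SE 0.20; edgeR quasi-likelihood adjusted p = 0.879). The ratio of the subunits, Gclc over Gclm in FPKM, was 0.638, 0.662 and 0.557 in Charme WT and 0.767 and 0.825 in Charme KO. The ratio was higher in both Charme KO pools than in any Charme WT pool. With 3 pools against 2, an exact two-sided permutation test cannot give a p below 0.1, and the ratio was looked at among several quantities, so it stands as a description.

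Hmox1 encodes heme oxygenase 1, which opens the heme ring and releases iron, carbon monoxide and biliverdin (chromosome 8, 75093621 to 75100589, plus strand). It had 16.2, 12.2 and 14.1 FPKM in Charme WT and 8.85 and 18.6 in Charme KO. The Charme KO pools were the lowest and the highest of the 5, on either side of all Charme WT pools. The mean was 14.2 ± 1.97 (SD, n = 3) in Charme WT and 13.7 ± 6.89 (SD, n = 2) in Charme KO, with a log2 fold change of -0.04 (SE 0.30; edgeR quasi-likelihood adjusted p = 0.955). Charme KO pool 2 exceeded Charme KO pool 1 by 1.07 on the log2 scale of FPKM, with no pseudocount. With a pseudocount of 0.5 CPM, a gap larger than 1 in either direction was found in 8.74% of the genes tested. In the same pools the 12 macrophage markers, genes of a cell type that recycles heme, summed to 160.6 and 261.9 CPM, and in Charme WT to 199.2, 120.9 and 162.3 CPM. Hmox1 and this sum were both highest in Charme KO pool 2, with Charme WT pool 1 next. Hmox1 was lowest in Charme KO pool 1, and the sum was lowest in Charme WT pool 2. The part of these cells in the level of Hmox1 was not tested.

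Txnrd1 encodes the cytosolic thioredoxin reductase (chromosome 10, 82833951 to 82897712, plus strand). It had 7.11, 10.6 and 8.46 FPKM in Charme WT and 7.32 and 9.81 in Charme KO, both within the Charme WT range, with a log2 fold change of -0.02 (SE 0.22; edgeR quasi-likelihood adjusted p = 0.964). Srxn1 encodes sulfiredoxin, which restores overoxidized peroxiredoxins (chromosome 2, 152105516 to 152111376, plus strand). It had 3.56, 4.53 and 4.41 FPKM in Charme WT and 3.49 and 5.002 in Charme KO, 1 pool below and 1 above the Charme WT range. For Srxn1 the log2 fold change was 0.04 (SE 0.25; edgeR quasi-likelihood adjusted p = 0.951), with a 95% interval of -0.53 to 0.60. Txnrd1 and Srxn1 were both higher in Charme KO pool 2 than in Charme KO pool 1, by 0.42 and 0.52 on the log2 scale of FPKM. The median gap in either direction over all genes tested was 0.39, with a pseudocount of 0.5 CPM.

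Slc7a11, the cystine carrier that feeds glutathione synthesis (chromosome 3, 49892526 to 50443614, minus strand), was close to the limit of detection. Its counts of 2, 2 and 3 in Charme WT and of 4 and 8 in Charme KO did not pass the filter of 10 counts in 2 pools. The summed counts were 7 in Charme WT, or 0.126 per 1000000 counts (exact Poisson 95% interval 0.0507 to 0.26), and 12 in Charme KO, or 0.313 per 1000000 counts (0.162 to 0.546). The Charme KO counts were the higher ones, and the intervals, which cover counting error only, overlapped. Slc7a11 is absent from the test above. Fitted with no filter on low counts, over 24464 genes, it was at 1.37 on the log2 scale (edgeR quasi-likelihood adjusted p = 0.454), a value that rests on these few counts.

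**Figure D2:**
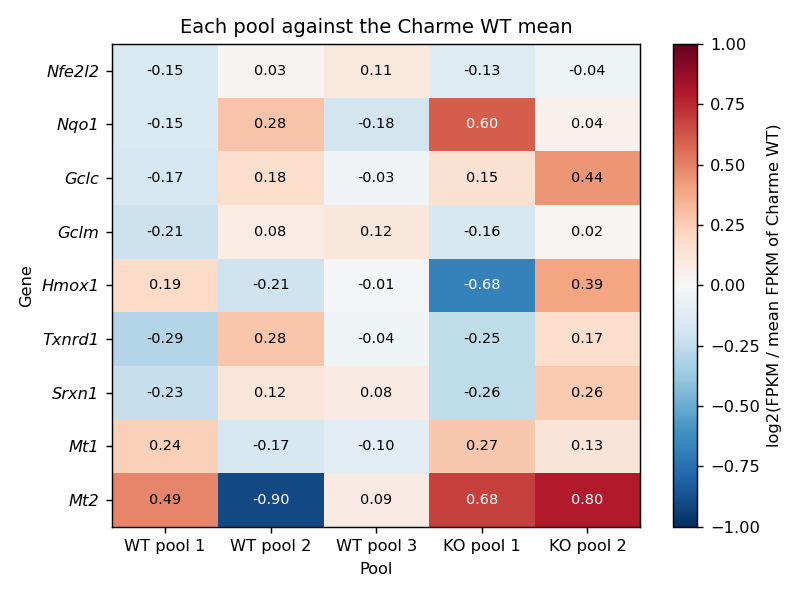
Each of the 9 tested genes (rows) in each pool (columns), as the log2 of its FPKM over the mean FPKM of Charme WT, red above and blue below that mean. Hmox1 was at -0.68 and 0.39 in Charme KO pools 1 and 2, Nqo1 at 0.60 and 0.04, and Mt2 at 0.68 and 0.80, with Charme WT pool 2 at -0.90.

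Over the 6 tested NRF2 targets as a group, the genotypes overlapped. Their median log2 ratio to the Charme WT mean was -0.19, 0.15 and -0.02 in the Charme WT pools and -0.21 and 0.22 in the Charme KO pools. Charme KO pool 1 and Charme WT pool 1 were the lowest by this measure, and Charme KO pool 2 the highest. Calls among the members differed with the Charme KO pool that was kept. Without Charme KO pool 2, Nqo1 (log2 fold change 0.60, edgeR quasi-likelihood adjusted p = 0.095) and Hmox1 (-0.69, adjusted p = 0.0575) were called, beside 31.7% of all genes tested, 4606 of them. Without Charme KO pool 1 no member was called, beside 4.33% of all genes, and the same 2 genes had log2 fold changes of 0.05 and 0.39. In these fits the lone Charme KO pool is assumed to vary like the Charme WT pools.

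**Figure D3:**
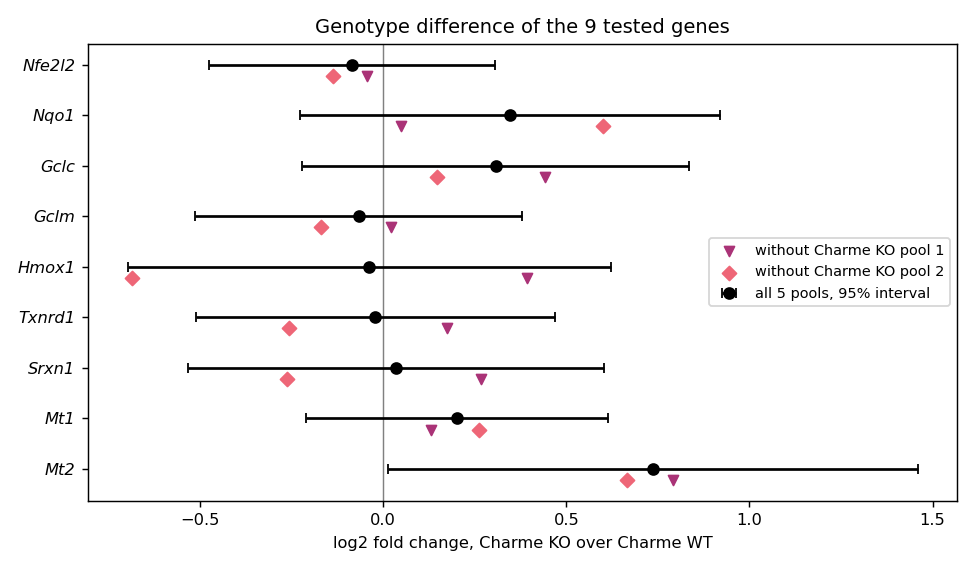
Log2 fold change, Charme KO over Charme WT, of the 9 tested genes, with the 95% interval of the edgeR quasi-likelihood fit (black) and the value without Charme KO pool 1 or without pool 2 (coloured). The intervals of 8 genes include 0, and that of Mt2 runs from 0.013 to 1.46; the coloured points of Hmox1 lie at 0.39 and -0.69.

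The metallothionein genes lie 5513 bp apart on the plus strand of chromosome 8, Mt2 (94172664 to 94173568) before Mt1 (94179082 to 94180327). Their annotated transcripts share 0 stretches of 35 nucleotides, the shortest read kept, so their counts can be told apart. Mt1 had 112.1, 84.9 and 88.6 FPKM in Charme WT and 114.8 and 104.2 in Charme KO. Charme KO pool 1 was the highest of the 5 and Charme KO pool 2 lay within the Charme WT range. Mt1 was at a log2 fold change of 0.20 (SE 0.18; edgeR quasi-likelihood adjusted p = 0.571), with a 95% interval of -0.21 to 0.61.

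Mt2 had 71.3, 27.2 and 53.9 FPKM in Charme WT and 81.4 and 88.1 in Charme KO, from 864, 283 and 627 counts and from 676 and 1157. Both Charme KO pools were higher than all Charme WT pools, which spread over 1.39 on the log2 scale, mostly through the low Charme WT pool 2. The mean was 50.8 ± 22.2 (SD, n = 3) in Charme WT and 84.7 ± 4.77 (SD, n = 2) in Charme KO. The log2 fold change was 0.74 (SE 0.32; edgeR quasi-likelihood adjusted p = 0.263, and 0.0466 before adjustment), with a 95% interval of 0.013 to 1.46, and did not pass the threshold. It was 0.44 without Charme WT pool 2 and 1.06 without Charme WT pool 1, and its adjusted p ranged from 0.18 to 0.58 over the 16 alternative fits.

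The share of Mt2 in the counts of both genes, which does not depend on how the pools were scaled, was 23.1% in Charme WT pool 1, 13.1% in pool 2 and 22.3% in pool 3. The exact (Clopper-Pearson) 95% intervals were 21.7% to 24.5%, 11.7% to 14.7% and 20.8% to 23.9%. In Charme KO the share was 25.1% (23.4% to 26.8%) in pool 1 and 28.5% (27.1% to 29.9%) in pool 2. Both lay above the Charme WT shares, though the intervals of Charme KO pool 1 and of Charme WT pools 1 and 3 overlapped, and these intervals cover counting error only. Summed over Mt1 and Mt2, the level was 183.4, 112.1 and 142.5 FPKM in Charme WT and 196.1 and 192.3 in Charme KO. This sum was higher in both Charme KO pools, which differed from each other by less than the Charme WT pools did. It holds the Mt2 difference above and gives Mt2 more weight per count, through its shorter length. Without lengths, Mt1 and Mt2 had 139.7 and 41.9 CPM in Charme WT pool 1 and 129.8 and 51.8 CPM in Charme KO pool 2. A sum in CPM would thus not set these 2 pools apart.

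**Figure D4:**
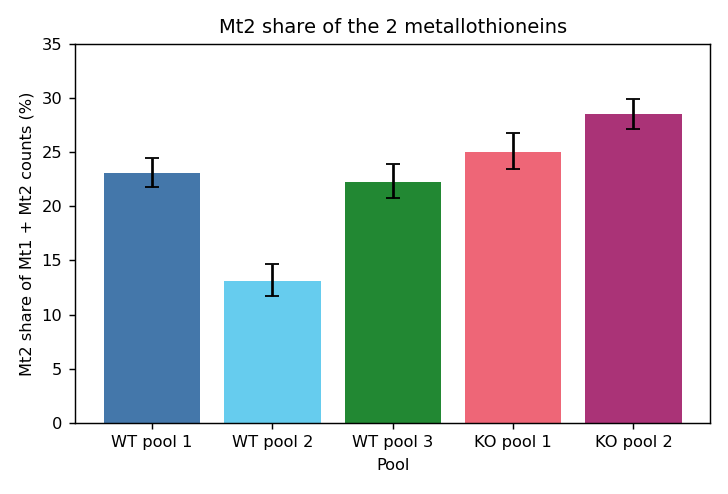
Share of Mt2 in the summed counts of Mt1 and Mt2 (percent) in each of the 5 pools, with exact 95% binomial intervals for counting error. Charme WT pool 2 stands lowest at 13.1%, and the Charme KO pools highest at 25.1% and 28.5%.

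The other metallothionein genes were lower. Mt3, known mainly from brain, lies in the same cluster (chromosome 8, 94152607 to 94154146, plus strand) and had 9.01, 13.7 and 8.63 FPKM in Charme WT and 18.1 and 21.7 in Charme KO. The genotypes did not overlap. Its log2 fold change of 0.93 (SE 0.26; edgeR quasi-likelihood adjusted p = 0.136) missed the threshold, while the likelihood ratio test and DESeq2 called it, as did the correction for gene length and GC content and the fits without either Charme KO pool. Mt4 had 0 counts in every pool, which allows up to 0.134 to 0.212 CPM (3 counts) depending on the pool.

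By the root mean square difference of log2 CPM, each gene centred on its own mean over the 5 pools, the profiles nearest to that of Mt2 among the genes tested were those of Ildr2 (0.0962), Msr1 (0.0999), Slc39a8 (0.116), Cd55 (0.117) and Mbp (0.129). Ildr2, Msr1 and Mbp were low, at means of 0.345, 0.560 and 0.589 FPKM over the 5 pools, and 21 genes lay within 0.2 of Mt2. Msr1 is a macrophage scavenger receptor and Slc39a8 a carrier that brings zinc into cells. Slc39a8 had 1.53, 0.516 and 1.36 FPKM in Charme WT and 1.81 and 1.81 in Charme KO, low in Charme WT pool 2 like Mt2. Slc39a8 was at 0.67 on the log2 scale (SE 0.38; edgeR quasi-likelihood adjusted p = 0.37). With 5 pools, likeness of profile is a description only.

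The wider pathway was described by 7 lists of genes, and the counts below are beside the 2.05% of all genes called by the quasi-likelihood test and the 6.27% called by the likelihood ratio test. Counts of genes whose genotypes did not overlap have the share over all genes tested beside them in parentheses. Some genes, Prdx1 and Txn1 among them, stand in more than 1 list and are counted in each. Among the 11 NRF2 regulators 0 were called, and 1, Nfe2l1, by the likelihood ratio test. The median log2 fold change of this list was -0.17, and the Charme KO values lay below all Charme WT values for 4 of the 11 (18.2% over all genes) and above them for 1 (17.8%). Nfe2l1, the relative of NRF2 that governs proteasome genes, had 60.5, 57.6 and 63.7 FPKM in Charme WT and 37.5 and 42.7 in Charme KO, with no overlap. Nfe2l1 was at -0.60 on the log2 scale (SE 0.17; edgeR quasi-likelihood adjusted p = 0.148). Sqstm1, the autophagy receptor that competes for KEAP1, had means of 87.5 and 85.7 FPKM and a log2 fold change of -0.03 (SE 0.16). Maff, a small MAF partner, was at 0.60 (SE 0.44), with Charme KO pools 1 and 2 at 1.27 and -0.60 against the Charme WT mean, and at -0.61 without Charme KO pool 1. Keap1 was at -0.25 (SE 0.25), with the Charme KO pools at -0.75 and 0.11.

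Of 24 other NRF2 targets 22 were tested and 0 were called. The likelihood ratio test called 6 of them, all higher in Charme KO: Tkt, Gsta4, Prdx1, Txn1, Ugdh and Akr1b8. The median log2 fold change was 0.25, with both Charme KO pools above Charme WT for 7 of 22 (17.8% over all genes) and below for 1 (18.2%). Over the pools the median of the list against the Charme WT mean was -0.18 and 0.43 in the Charme KO pools, which thus went opposite ways. Tkt, the transketolase of the pentose phosphate pathway, had 6.87, 7.52 and 6.42 FPKM in Charme WT and 7.08 and 21.5 in Charme KO. Its log2 fold change of 1.05 (SE 0.36; edgeR quasi-likelihood adjusted p = 0.187) was 0.02 without Charme KO pool 2, the pool with the highest salivary gland and adipose markers. The ferritin genes Fth1 (-0.31, SE 0.22) and Ftl1 (-0.03, SE 0.19), which store iron, were the most abundant of the list, at means of 321.7 and 291.7 FPKM in Charme WT and 260.1 and 285.3 in Charme KO.

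For glutathione synthesis and use, 28 genes were tested and 0 called. The likelihood ratio test called 3 higher in Charme KO, Gpx1, Gstm2 and Mgst1. The median log2 fold change was 0.32, with both Charme KO pools above Charme WT for 10 of 28 (17.8% over all genes) and below for 1 (18.2%). By pool the median against the Charme WT mean was 0.36 and 0.19 in Charme KO, and -0.12 to 0.09 in Charme WT. Mgst1, a microsomal glutathione transferase, had 8.10, 5.06 and 3.64 FPKM in Charme WT and 6.96 and 25.6 in Charme KO, a log2 fold change of 1.55 (SE 0.47; edgeR quasi-likelihood adjusted p = 0.158) that was 0.30 without Charme KO pool 2. Gpx4, which protects membranes from lipid peroxides, was at 0.40 (SE 0.20). Mgst3 was at 0.20 (SE 0.21), at -0.14 without Charme KO pool 1 and at 0.016 with the correction for gene length and GC content.

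Among 20 genes of thioredoxins, peroxiredoxins, superoxide dismutases and catalase, 1 was called, higher in Charme KO. It was Prdx4, the peroxiredoxin of the endoplasmic reticulum, with 29.1, 28.4 and 24.1 FPKM in Charme WT and 56.8 and 41.2 in Charme KO. The genotypes did not overlap, at 27.2 ± 2.68 (SD, n = 3) against 49.0 ± 11.0 (SD, n = 2). The log2 fold change was 0.85 (SE 0.19; edgeR quasi-likelihood adjusted p = 0.0849). The call was lost without any 1 of the Charme WT pools (0.90, 0.88 and 0.77 without pools 1, 2 and 3) and without Charme KO pool 1 (0.60), and also with no filter on low counts, with the replicate block (0.75) and with the correction for gene length and GC content (0.57). Txnip, which binds and inhibits thioredoxin, had means of 415.9 FPKM in Charme WT and 269.0 in Charme KO and a log2 fold change of -0.63 (SE 0.24; edgeR quasi-likelihood adjusted p = 0.215). Prdx2, the peroxiredoxin abundant in red cells, had 156.6, 160.3 and 141.2 FPKM in Charme WT and 197.4 and 146.0 in Charme KO, and only Charme KO pool 1 lay outside the Charme WT range. Its fold change was 0.17 on the log2 scale (SE 0.20) and -0.063 without Charme KO pool 1. The likelihood ratio test called Txn1, Prdx1 and Prdx4 higher and Txnrd3 lower.

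Among the genes of heme and iron handling, 18 of 20 were tested and 0 called, with a median log2 fold change of 0.04. Slc40a1, the iron exporter ferroportin, had 2.33, 1.43 and 2.67 FPKM in Charme WT and 0.802 and 1.09 in Charme KO, with no overlap. Its log2 fold change was -1.18 (SE 0.31; edgeR quasi-likelihood adjusted p = 0.118), and the likelihood ratio test called it. Among the genes of zinc and copper handling, 23 of 25 were tested and 0 called, with a median of 0.20, both Charme KO pools above Charme WT for 8 of 23 (17.8% over all genes) and below for 5 (18.2%). Mt3 was the 1 gene of this list called by the likelihood ratio test. The copper chaperone Atox1 (0.18, SE 0.20) and the zinc importer Slc39a1 (-0.29, SE 0.17) were its most abundant genes, and Mtf1, the metal sensor, had 1.73, 1.96 and 1.96 FPKM in Charme WT and 1.03 and 1.51 in Charme KO, a log2 fold change of -0.56 (SE 0.24; edgeR quasi-likelihood adjusted p = 0.259).

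Because glucocorticoids also raise metallothionein RNA, 16 genes of the glucocorticoid response were set beside them. A single gene, Pdk4, the kinase that inhibits pyruvate dehydrogenase, was called and was lower in Charme KO, at 95.4 ± 14.1 FPKM (SD, n = 3) against 36.0 ± 0.278 (SD, n = 2). Its log2 fold change was -1.41 (SE 0.19; edgeR quasi-likelihood adjusted p = 0.0336), and the call was lost without Charme WT pool 1 or 3, where the value was -1.40 and -1.30 and edgeR's quasi-likelihood test called 2 and 0 genes in all (2190 and 1315 had an unadjusted p under 0.05). Ddit4 was at -0.73 (SE 0.23; adjusted p = 0.161 by edgeR's quasi-likelihood test). The list as a whole had a median of 0.16, with both Charme KO pools above Charme WT for 2 of 16 genes (17.8% over all genes) and below for 2 (18.2%). The likelihood ratio test called Zbtb16 higher and Ddit4 and Pdk4 lower.

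**Figure D5:**
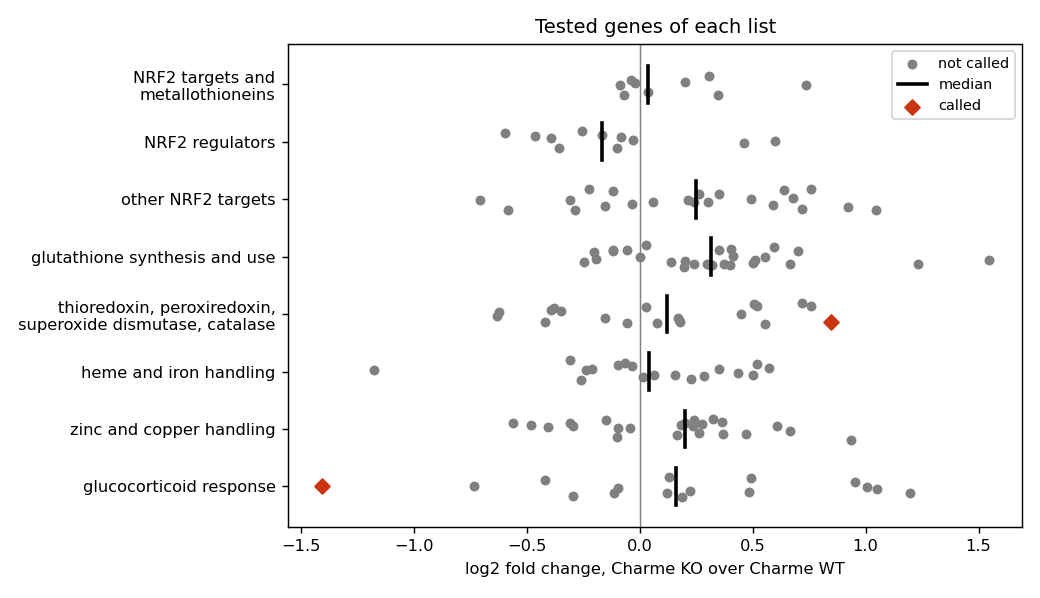
Log2 fold change, Charme KO over Charme WT, of the tested genes of the 10 members and of 7 related lists, with 1 point per gene, a bar at the median and a diamond for a gene called. Prdx4 at 0.85 and Pdk4 at -1.41 are the called genes, and the medians run from -0.17 to 0.32.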

How the data were processed

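Pooled whole hearts were sequenced as stranded poly(A) libraries, 150-nucleotide paired end. The authors trimmed the reads with Cutadapt and Trimmomatic, discarded those shorter than 35 nucleotides and aligned the rest with STAR to GRCm38. STAR also counted the fragments of each Ensembl release 87 gene, on the reverse strand. The deposited counts are raw whole numbers for 49671 genes. A deposited FPKM table was left aside. FPKM here rests on the counts, the TMM library sizes and the union of exons in GENCODE M21, with 1 kb given to 23 tested genes without a length. Stranded counting separates antisense genes. Same-strand neighbours overlap Nfe2l2, Gclm, Txnrd1 and Slc7a11, and reads that lie over both genes may be missing from the counts.

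Genes that reached 10 counts in 2 or more pools were tested in R 4.3.3 with edgeR 4.0.16 (TMM, quasi-likelihood F test for genotype, Benjamini-Hochberg over 14880 genes). The study's methods name the likelihood ratio test, kept here as an alternative beside DESeq2 1.42.0. Limma 3.58.1 was loaded by edgeR. The threshold for a call was an adjusted p of 0.1, with a mean FPKM of 1 or more in a genotype. Standard errors are the log2 fold change over the square root of F. The members and lists were chosen with earlier results of these data known, so the lists are no independent evidence. Genes named were all members, and in each list those called, the 2 most abundant and the 1 with the largest change, and the 5 profiles nearest to the member with the largest change. Keap1, Mtf1 and genes called by the likelihood ratio test alone were named after their values were seen, as were the ratio of Gclc to Gclm and the share of Mt2. Pools are the replicates, and p-values measure the spread between pools. Without molecular identifiers, the intervals and floors describe counting error alone. The script was tested on simulated data. Alternatives were other tests, normalizations and filters, a replicate block, removal of mitochondrial and salivary gland genes, a spline correction (4 degrees of freedom) for gene length and GC content, and each pool left out.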

Additional observations from a re-analysis of the deposited data

How the results depend on the processing

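The number of genes called was 933 with the likelihood ratio test, 1122 with DESeq2 and 111 at an adjusted p under 0.05, and ran from 0 to 4606 when 1 pool was left out (2, 187 and 0 on omitting Charme WT pools 1, 2 and 3, and 639 and 4606 on omitting Charme KO pools 1 and 2). The 0 is from edgeR's quasi-likelihood test, and 1315 genes then had an unadjusted p under 0.05. The number of members called was 0 under every alternative other than the one without Charme KO pool 2, and ran from 0 to 2 with 1 pool left out. In the order NRF2 regulators, other targets, glutathione, thioredoxin and peroxiredoxin, heme and iron, zinc and copper, and glucocorticoid genes, the likelihood ratio test called 1, 6, 3, 4, 1, 1 and 3 genes, and DESeq2 called 1, 6, 2, 5, 1, 1 and 4. With 1 pool left out these counts ran from 0 to 5, 0 to 9, 0 to 10, 0 to 12, 0 to 9, 0 to 9 and 0 to 5. The thioredoxin and peroxiredoxin list had 0 calls with no filter on low counts (24464 genes tested) and 0 at an adjusted p under 0.05, and the correction for gene length and GC content gave 1 call in the heme list and 1 in the zinc list. The cause of these shifts was not tested. Prdx1 and Txn1 stand both among the other targets and in the thioredoxin and peroxiredoxin list, and their calls are counted in each.

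With upper-quartile normalization the log2 fold change turned to 0.011 for Txnrd1, 0.0017 for Sqstm1 and 0.0012 for Ftl1. With the correction for gene length and GC content it turned to 0.059 for Txnrd1 and 0.069 for Sqstm1. Leaving out 1 pool at a time, it ran from -0.17 to 0.022 for Gclm, -0.69 to 0.39 for Hmox1, -0.26 to 0.17 for Txnrd1, -0.26 to 0.27 for Srxn1, -0.61 to 1.26 for Maff, -0.27 to 0.17 for Ftl1, -0.14 to 0.47 for Mgst3 and -0.063 to 0.36 for Prdx2. Nfe2l2, Nqo1, Gclc, Mt1 and Mt2 kept their direction under all 16 alternative fits. Slc7a11, at 2 to 8 counts, was limited by depth.

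With the replicate number as a block, 210 genes were called, 0 of them members, 0 in the thioredoxin and peroxiredoxin list and 2 in the glucocorticoid list, and Mt2 was at 0.93 (edgeR quasi-likelihood adjusted p = 0.225). The genotypes share only the numbers 1 and 2, and the pools were not taken as paired. The deviations of same-numbered pools from their genotype mean correlated at 0.18 and 0.116 across genes. With 2 Charme KO pools, the deviations of 1 are those of the other with the sign turned, so these correlations cannot decide on pairing.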
